A study of Mus musculus with 56 samples.

Results

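The classic p53 target genes examined here were Cdkn1a, Ccng1, Ddb2, Bbc3, Mdm2, Bax, Phlda3, Sesn2, Trp53inp1 and Aen, 10 of the 30199 gene names on a one-color Agilent whole mouse genome array. They were chosen by name, and all 14 probes that carry these names were read. Blood of C57BL/6 mice, received at 10 to 12 weeks of age, was collected 4, 7, 9, 25 or 30 days after the irradiated mice had been injected in the tail vein with 200 kBq of 90Sr, a beta emitter that lodges in bone. Each day had control mice of its own, which by the study's methods were given the saline vehicle. The injected solution also held a small share of a gamma-emitting strontium isotope as a tracer. Each array held RNA of 1 mouse, and of the 56 arrays the 2 groups of day 4 had 4 each and every other group 6. Every sample was whole blood with globin transcripts reduced before labeling, so fewer cells of a type and less RNA per cell cannot be told apart on the arrays alone. The study also counted cells on blood smears by hand and reported no significant change at any day, and those counts were not used here. A level below is the log2 processed signal minus the median of all 43020 non-control spots of that array, and a change is the mean level of 90Sr mice minus that of control mice of the same day, in log2 units.

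The transcription factor p53 is held at a low level in unstressed cells, largely through the ubiquitin ligase Mdm2, and is stabilized when damage kinases such as ATM sense broken DNA. It then binds to response elements near its target genes and raises their transcription. The targets stop the cell cycle (Cdkn1a, which encodes p21), start apoptosis (Bax, Bbc3), repair DNA (Ddb2) or feed back on p53 itself (Mdm2, Ccng1), and in blood cells several of them are used as markers of radiation exposure.

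The p53 response element is a pair of decamers, and the stretches below show where a decamer that matches the consensus at every base lies in the RefSeq promoter windows (GRCm38.p6, 250 bases before to 50 after each annotated start, both strands searched). They are printed for the members with a match, Cdkn1a first because its level moved most, with 10 bases on either side in lower case and the decamer in capitals. Windows were at hand for 8 of the 10 members; Ddb2 and Trp53inp1 were not matched.
Cdkn1a, chr17:29090896-29090925, + strand: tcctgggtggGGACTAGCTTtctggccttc
Cdkn1a, chr17:29090918-29090947, + strand: tggccttcagGAACATGTCTtgacatgttc
Ccng1, chr11:40755452-40755481, - strand: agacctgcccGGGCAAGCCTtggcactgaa
Bax, chr7:45467080-45467109, - strand: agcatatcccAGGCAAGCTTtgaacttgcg
Aen, chr7:78895927-78895956, + strand: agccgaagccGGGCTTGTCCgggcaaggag
Mdm2, chr10:117710925-117710954, - strand: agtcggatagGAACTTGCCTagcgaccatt
The decamer was present in windows of 5 of the 8 matched members, counted by gene, and Cdkn1a, Bbc3 and Aen had more than a single window. Counted by window it was present in 8.36% of all 32851 windows, so these shares differ in unit. A pair of decamers at most 13 bases apart was found in 24 windows (0.0731%), and 1 of these belonged to Cdkn1a, with the decamers beginning at -73 and -51 from the start. That start lies 2790 bases upstream of the other annotated Cdkn1a start, whose window held none. A match of letters is a description of the sequence, and binding of p53 was not measured here.

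All 10 members and 13 of their 14 probes passed the detection filter (fewer than 25% of arrays with a probe flagged as non-uniform or as not above background), as did 18797 genes. Non-control spots well above background numbered 17809 to 24698 per array in controls (median 21049) and 14389 to 22524 in 90Sr mice (median 17863). Whole-blood identity was checked with lists of markers: 6 of 8 B cell, 6 of 8 T cell, 4 of 6 NK cell, 6 of 8 neutrophil, 5 of 8 monocyte, 7 of 8 erythroid and 8 of 8 platelet genes stood well above background in every array. Slides, 14 in number, carried 4 arrays each. Slide and group cannot be told apart at day 4, when controls were on 1 slide and 90Sr mice on another. For the 4 later days a single slide was shared between groups, with 2 arrays of either. Arrays of 7 scan days were used, and at days 7 and 30 the slide with 4 90Sr arrays alone was scanned on another day than the rest.

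Across the members the response to 90Sr was not uniform. Cdkn1a passed the call rule as higher from day 4 through day 25, Phlda3 as higher at day 30, and Ddb2 as lower at days 4 and 25. The other 7 members passed it at no day. Phlda3 had a higher mean in 90Sr mice at every day, under 2-fold before day 30. That rule, taken from the study's methods, required 2-fold or more and an unadjusted limma p below 0.001. At day 4, 1 of 10 members was called higher against 2.09% of all genes tested, and 1 was called lower against 17.3%. At day 7 the counts were 1 higher (2.59% of all genes) and 0 lower (12%), at day 9 they were 1 higher (4.4%) and 0 lower (13.7%), and at day 25 they were 1 higher (5.64%) and 1 lower (19.7%). At day 30, 1 member was called higher (15.5%) and 0 lower (16.1%). The median change of the members was -0.12, -0.11, 0.03, -0.30 and -0.12 at the 5 days in order, and the median of all genes was -0.01, -0.00, -0.08, -0.10 and 0.12. By an adjusted p under 0.05 with no minimum fold, 2, 2, 2, 2 and 1 members were higher and 4, 2, 1, 4 and 2 lower in order of day. The share of all genes at that threshold is not given here, nor is the share of all genes whose groups did not overlap. Nothing particular to the members is therefore read from these counts or from groups that did not overlap.

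Scaling bore on the sign of small changes. When the 75th percentile took the place of the median, the members called were Cdkn1a and Phlda3 at days 4, 7 and 9, Cdkn1a at day 25 and Phlda3 at day 30, all higher, and no member was called lower. Of all genes, 19.5%, 14.3%, 16.9%, 26.7% and 32.4% were then called in order of day. That scaling put the median change of all genes at 0.47, 0.35, 0.31, 0.38 and 0.31 in order of day, and the share of lower genes among all called genes fell from 89.2%, 82.3%, 75.6%, 77.8% and 51.0% to 29.9%, 24.3%, 28.0%, 20.3% and 37.1%. Quantile normalization gave 65.0%, 52.6%, 62.2%, 44.8% and 53.9%, scaling on the median of detected probes 40.4%, 31.2%, 41.6%, 23.3% and 50.5%, and no scaling at all 99.5%, 99.7%, 99.8%, 99.8% and 93.6%. The direction of each member is given below with the scalings under which it turned.

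**Figure D1:**
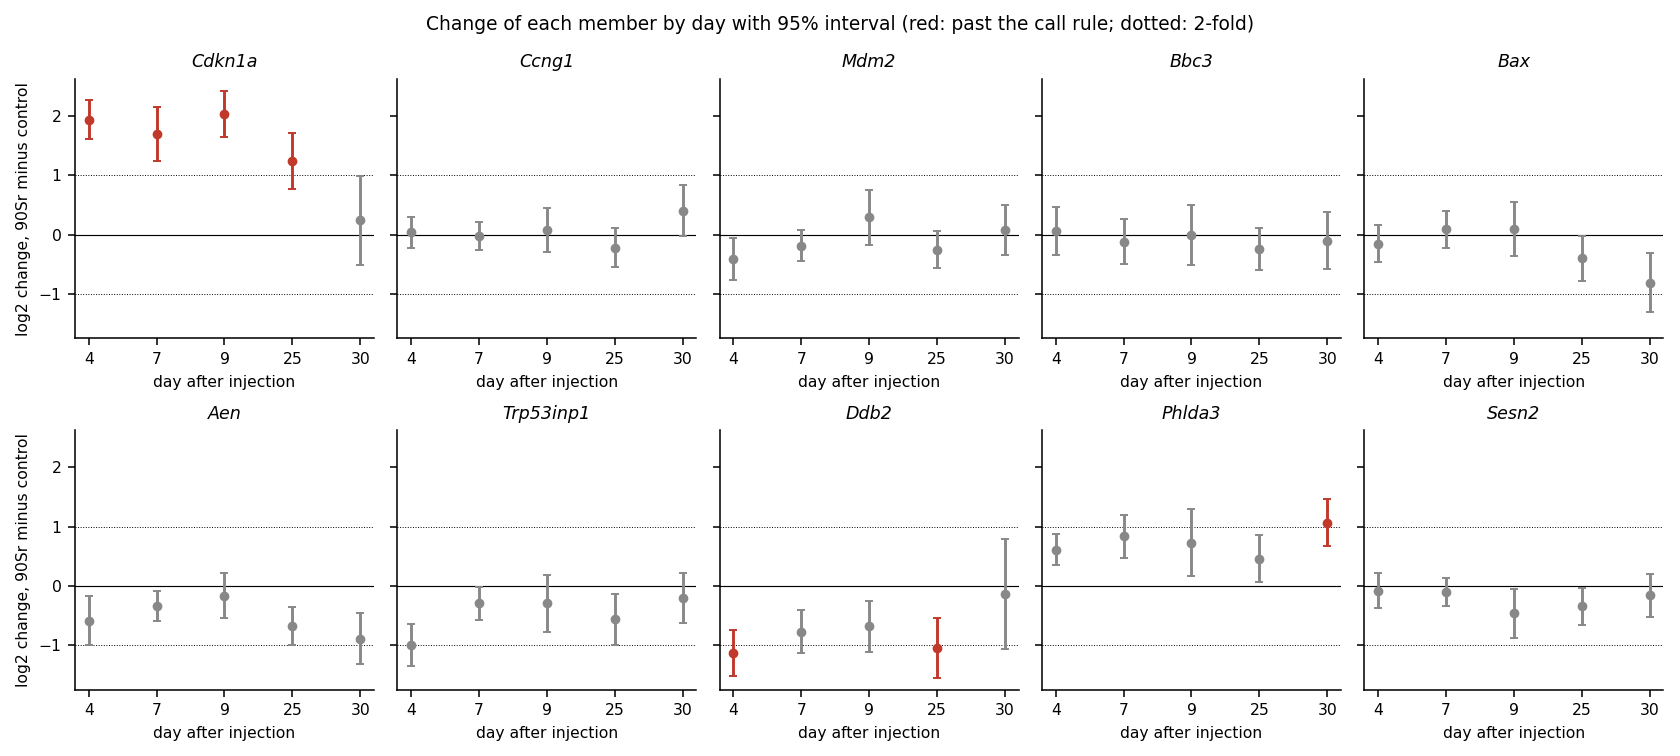
Change of each member (90Sr minus control, log2, vertical axis) by day after injection, with 95% intervals from limma; red points passed the call rule and dotted lines mark 2-fold. Cdkn1a lay between 1.24 and 2.04 from day 4 to day 25 and at 0.24 on day 30, whereas Ccng1, Mdm2 and Bbc3 stayed between -0.41 and 0.40.

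Among the cell cycle members, Cdkn1a, which encodes the cyclin-dependent kinase inhibitor p21, had the largest changes. At day 4 the control levels were -1.13, -0.83, -0.83 and -1.19, and the levels of 90Sr mice were 0.97, 0.93, 1.15 and 0.73. Every 90Sr mouse thus lay above every control mouse, with a change of 1.94 ± 0.15 (SE, n = 4 per group; limma adjusted p = 1.43e-04). At day 7 the controls ran from -1.64 to -1.17 (median -1.36) and the 90Sr mice from -0.39 to 0.99 (median 0.37). The groups again did not overlap, and the change was 1.69 ± 0.21 (SE, n = 6 per group; limma adjusted p = 1.21e-04). At day 9 the controls ran from -1.47 to -0.74 (median -1.22) and the 90Sr mice from 0.59 to 1.12 (median 0.86), a change of 2.04 ± 0.18 (limma adjusted p = 1.22e-05). No mouse of one group reached the other at day 9. At day 25 the controls ran from -1.16 to 0.10 (median -0.61) and the 90Sr mice from 0.31 to 1.38 (median 0.63), a change of 1.24 ± 0.22 (limma adjusted p = 4.37e-04), again with no overlap. The direction at these 4 days was the same under all 5 scalings, with changes of 1.28 to 2.42 at day 4, 1.1 to 2.04 at day 7, 1.1 to 2.43 at day 9 and 0.58 to 1.73 at day 25. Without scaling, the day 25 change did not pass the call rule.

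At day 30 the Cdkn1a groups overlapped. Control levels were 0.41, -0.21, -0.88, -1.5, -1.21 and -0.74, and levels of 90Sr mice were 0.33, 0.35, -0.76, -1.05, -1.13 and -0.45. No 90Sr mouse lay above every control mouse, and the change of 0.24 ± 0.35 (SE, n = 6 per group) had a 95% interval of -0.51 to 0.98 and a limma adjusted p of 0.568. It was below 0 without scaling between arrays (-0.35) and with the authors' processed values (-0.11). With those values the day 7 change was 1.08 and did not pass the call rule. On the 1 slide of day 30 that held both groups, the 2 controls were at -1.21 and -0.74 and the 2 90Sr mice at 0.33 and 0.35. The slide-blocked change, which rests on that slide alone, was 1.32 (limma adjusted p = 0.125), and with scan day as a block it was 1.03 (limma adjusted p = 0.0671). At days 7 and 30 a block for scan day sets only the 2 90Sr mice scanned with the controls against the 6 controls. At days 7, 9 and 25 the slide-blocked changes were 1.43, 1.77 and 1.32 (limma adjusted p = 0.0171, 0.00683 and 0.148). The part of slide and scan day in the day 30 value was not tested further.

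Cdkn1a was a dim gene in this blood. Its main probe (mm9 chr17:29237377-29237436, 10 spots on each array) was well above background on 15 of 56 arrays, 3 of controls and 12 of 90Sr mice, when 5 or more of its spots were required. On no control array of days 4, 7 and 9 did it reach that level, so no fold is given there. A floor was set at the lowest signal of a probe well above background on each control array. At day 4, with all 4 90Sr arrays well above background, the 90Sr level was at least 3.01-fold higher. At days 7 and 9 the mean of 90Sr arrays was 1.13-fold and 1.93-fold above the floor. Only 2 and 3 of 6 90Sr arrays were then well above background, so these are not firm bounds. At day 25 the probe was well above background on 1 of 6 control and 2 of 6 90Sr arrays, and at day 30 on 2 of 6 and 1 of 6. The changes of these days thus also rest mostly on dim signals. With normexp background correction in place of the scanner's own, Cdkn1a changes of 0.12, 0.57, 0.31, 0.14 and 0.30 passed the call rule at no day. That correction adds an offset of 50, above the median processed signal of every array (2.87 to 4.79 in log2). The offset shrinks changes of so dim a gene, so missing the rule there does not decide whether Cdkn1a changed. A filter for probes well above background on 75% of arrays left the gene out.

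**Figure D2:**
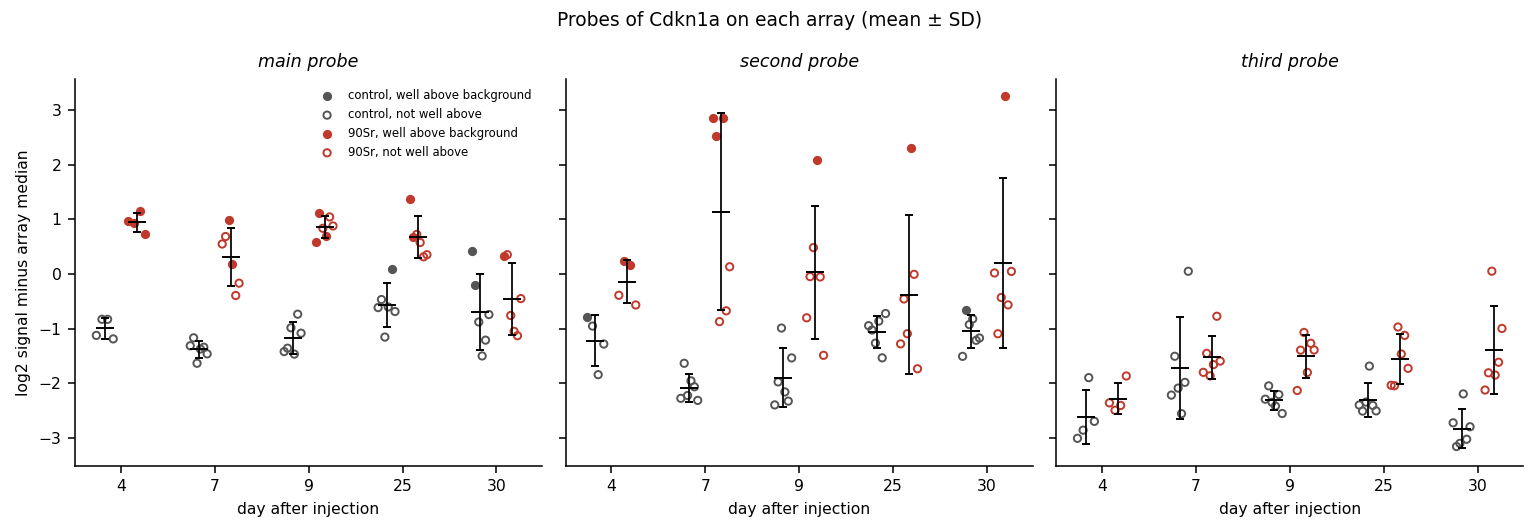
Level of each of the 3 Cdkn1a probes (log2 signal minus array median, vertical axis) on every array by day; filled points were well above background, and bars are mean ± SD. At day 30 the groups of the main probe overlapped, while the second probe had 1 90Sr array at 3.25 and the third probe was well above background on 0 arrays.

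The other Cdkn1a probes were dim as well. The second probe, which lies upstream at mm9 chr17:29227986-29228045 and was well above background on 10 arrays, had differences of its measured means of 1.08 ± 0.27, 3.22 ± 0.65, 1.93 ± 0.46, 0.68 ± 0.52 and 1.26 ± 0.55 (SE) in order of day. On no control array of days 7, 9 and 25 was it well above background. The mean of 90Sr arrays was 2.01-fold and 1.09-fold above the floor at days 7 and 9 and below it at day 25. Only 3, 1 and 1 of 6 90Sr arrays were well above background at these days, so no bound is drawn. Its levels in 90Sr mice were uneven: at day 7 they were 2.87, 2.53, -0.87, 2.86, -0.68 and 0.13, against -2.32 to -1.64 in controls. At day 30 they were 0.02, -1.09, -0.43, 3.25, -0.57 and 0.05, against -1.51 to -0.67 in controls. So 3 of 6 mice at day 7 and 1 of 6 at day 30 were well apart from their group, and so was replicate 4 at day 9 (2.09) and at day 25 (2.31). The third probe (mm9 chr17:29235299-29235358) did not pass the detection filter and was well above background on 0 of 56 arrays, so it has no fold and no direction is drawn from it. With the mean of the main and second probes the Cdkn1a change was 0.75 at day 30 (limma adjusted p = 0.0352), and at day 25 it was 0.96, below the 2-fold rule.

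Ccng1, which encodes cyclin G1, a regulator of Mdm2 and p53 activity, did not change by the call rule at any day. The study's own array analysis gave Ccng1 as significantly affected at some times, and its qRT-PCR, set against Actb, as induced early. These differences from the result here were not tested. The control levels of Ccng1 ran from 3.08 to 3.29 at day 4 and its 90Sr levels from 3.14 to 3.38, and the groups overlapped at every day. Changes were 0.04, -0.03, 0.07, -0.23 and 0.40 in order of day, with the smallest limma adjusted p, 0.0968, at day 30, where controls spread from 1.93 to 2.90. All 5 changes were above 0 with arrays scaled on the 75th percentile and all 5 below 0 without scaling. The decamer shown above for Ccng1 lies within its promoter window, at -185 from the start.

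Mdm2, which encodes the ubiquitin ligase that ends the p53 response, was lower in all 4 90Sr mice at day 4 than in any control. Control levels were 5.49, 5.37, 5.77 and 5.56, 90Sr levels were 5.35, 4.96, 5.31 and 4.91, and the change was -0.41 ± 0.15 (SE; limma adjusted p = 0.0469). That change was 0.07 with the 75th percentile as the scaling, so its sign turned. At the other days Mdm2 overlapped between groups, with changes of -0.19, 0.29, -0.25 and 0.07 at days 7, 9, 25 and 30 and limma adjusted p of 0.143 to 0.762. At day 9, 4 of 6 90Sr mice were above every control and replicate 1 was below every control, at 4.67.

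**Figure D3:**
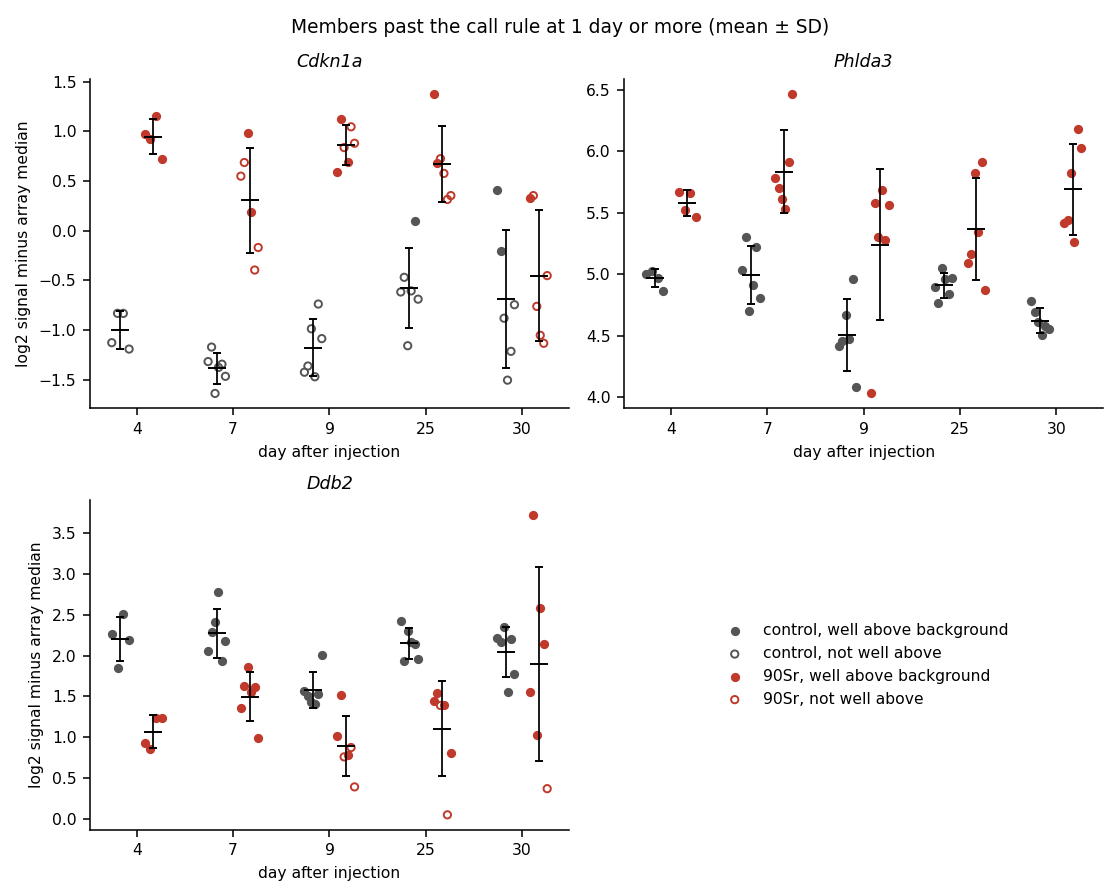
Level (log2 signal minus array median, vertical axis) of the 3 members that passed the call rule, on every array by day; filled points were well above background, and bars are mean ± SD. The 90Sr mice lay above the controls for Cdkn1a up to day 25 and for Phlda3 at days 4, 7 and 30, and below them for Ddb2 at days 4, 7 and 25.

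With arrays centered on their median, no cell death member passed the call rule. Without scaling, Bax passed it at days 25 and 30 (-1.06 and -1.41). Aen then passed it at days 4, 9, 25 and 30 (-1.25, -1.11, -1.35 and -1.48). Of all genes, 34.5%, 41.9%, 39.6% and 28.6% were called without scaling at these 4 days. Bbc3, which encodes PUMA, had changes of 0.06, -0.12, -0.01, -0.24 and -0.10 with limma adjusted p of 0.21 or more at every day, and its groups overlapped throughout. The study's own array analysis, however, gave Bbc3 as significantly affected at some times. By the study's qRT-PCR, set against Actb, Bbc3 was induced at day 4 and repressed later. These differences from the result here were not tested. The 95% intervals of Bbc3 reached from -0.60 to 0.50 over the 5 days, and its change turned sign with the 75th percentile as the scaling at days 7, 9, 25 and 30. Bax, which encodes the pore-forming protein of the mitochondrial death pathway, changed by -0.15, 0.09, 0.09 and -0.40 at days 4 to 25. At day 30 Bax controls ran from 4.80 to 6.19 (median 5.52) and 90Sr mice from 4.38 to 5.26 (median 4.62). In 4 of 6 90Sr mice Bax was below every control, and the change of -0.81 ± 0.23 (SE; limma adjusted p = 0.00730) kept its sign under all 5 scalings, from -1.41 to -0.63. On the slide that held both groups the day 30 change of Bax was -0.33 (limma adjusted p = 0.579). With scan day as a block, which rests on 2 90Sr mice, it was -0.46 (limma adjusted p = 0.253).

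Aen, which encodes an apoptosis-enhancing nuclease, was the member most often lower without reaching 2-fold. At day 4 its controls were at 3.36, 3.32, 3.67 and 3.04 and its 90Sr mice at 2.83, 2.96, 2.90 and 2.35, so the groups did not overlap (change -0.59 ± 0.18 SE; limma adjusted p = 0.0229). They did not overlap at day 25 either, when controls ran from 3.08 to 3.54 (median 3.46) and 90Sr mice from 2.42 to 2.99 (median 2.81). The change then was -0.68 ± 0.15 (limma adjusted p = 0.00162), and at day 30 it was -0.89 ± 0.20 (limma adjusted p = 0.00157) with 5 of 6 90Sr mice below every control. On the slides that held both groups the changes were -0.42 and -0.80 at these days (limma adjusted p = 0.305 and 0.177). With normexp background correction and its offset of 50 the changes of these days were 0.07 and -0.11. Days 4, 25 and 30 kept their sign under all 5 scalings, but shrank to -0.11, -0.20 and -0.70 at the 75th percentile. Day 7 (-0.34, limma adjusted p = 0.0235) and day 9 (-0.17, limma adjusted p = 0.482) turned above 0 with that scaling. The second Aen probe starts 10 bases from the first and overlaps it, and it gave -0.54, -0.21, 0.05, -0.55 and -0.89. It therefore differed in sign from the brighter probe at day 9.

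Trp53inp1, which encodes a stress protein that takes p53 toward apoptosis and autophagy, was lowest at day 4. Its controls were at 4.44, 4.31, 4.67 and 4.41 and its 90Sr mice at 3.74, 3.57, 3.13 and 3.40. The groups did not overlap, and the change of -1.0 ± 0.16 (SE; limma adjusted p = 8.80e-04) fell just short of the 2-fold rule at 1.996-fold. It passed the rule when any of control replicates 1, 2 and 4 or 90Sr replicates 1 and 2 was left out, and it was -0.52 with the 75th percentile as the scaling. Later changes were -0.29, -0.30, -0.56 and -0.20, of which day 25 had a limma adjusted p of 0.0257 and the others 0.0695 or more. The second Trp53inp1 probe, in another place of the gene, changed less, by -0.29, 0.00, -0.01, -0.35 and 0.20. At day 25 that probe was well above background on 6 control arrays and 0 90Sr arrays, so controls were at least 1.18-fold higher.

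**Figure D4:**
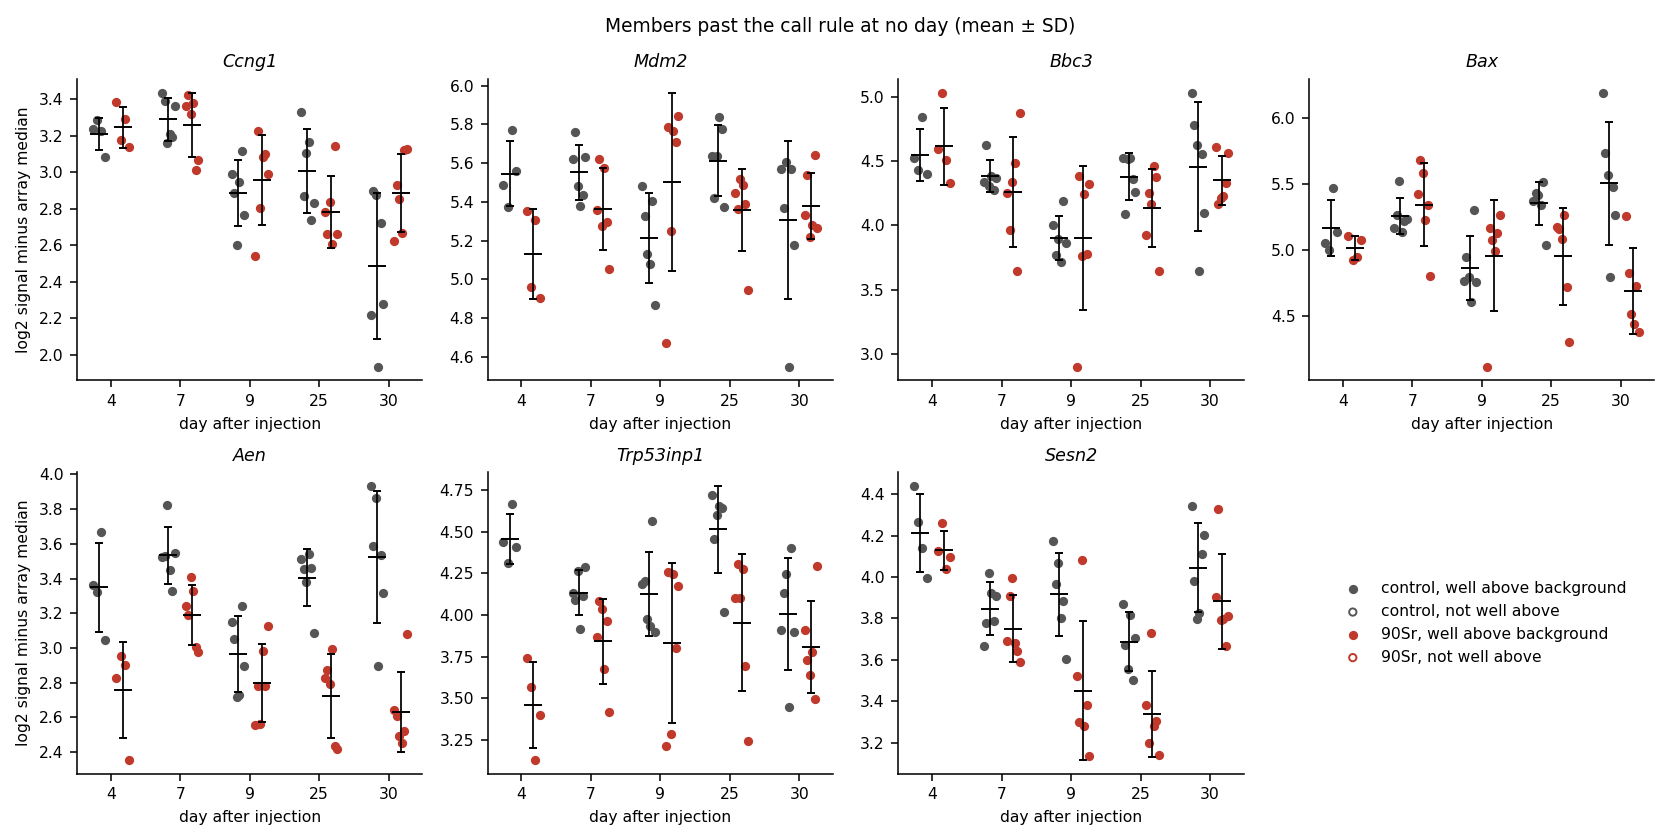
Level (log2 signal minus array median, vertical axis, each panel on its own range) of the 7 members that passed the call rule at no day, on every array by day; all points are filled, since each main probe was well above background on all 56 arrays, and bars are mean ± SD. Groups did not overlap for Mdm2 and Trp53inp1 at day 4 and for Aen at days 4 and 25. The share of all genes with groups apart at these days is not given.

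Ddb2, the repair member, encodes the damage-recognition subunit of nucleotide excision repair and was lower in 90Sr mice. At day 4 its controls were at 2.26, 1.85, 2.51 and 2.20 and its 90Sr mice at 0.94, 0.86, 1.24 and 1.24. No 90Sr mouse reached a control, and the change was -1.14 ± 0.17 (SE; limma adjusted p = 6.66e-04), a 2.20-fold fall. The study's qRT-PCR, set against Actb, went the other way, with Ddb2 induced at day 4 and repressed later. The difference between the measures was not tested. At day 7 controls ran from 1.93 to 2.78 (median 2.23) and 90Sr mice from 0.99 to 1.86 (median 1.58). The groups again did not overlap, but the change of -0.77 ± 0.17 (limma adjusted p = 0.00184) was under 2-fold, as was that of day 9, -0.68 ± 0.20 (limma adjusted p = 0.0128). At day 25 controls ran from 1.93 to 2.42 (median 2.15) and 90Sr mice from 0.05 to 1.55 (median 1.39), a change of -1.05 ± 0.24 (limma adjusted p = 0.00196). The day 25 call was lost when control replicate 1, 3, 4 or 5 or 90Sr replicate 5 or 6 was left out, with changes of -1.05 to -0.83 in those 6 fits. On the slide of day 25 that held both groups the change was -0.55 (limma adjusted p = 0.374).

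At day 30 the 90Sr mice were spread widely for Ddb2. Their levels were 1.55, 3.72, 1.03, 2.58, 2.15 and 0.37, against 1.55 to 2.34 in controls, with 2 of 6 above every control and 3 of 6 below every control. The change was -0.14 ± 0.43 (SE; limma adjusted p = 0.784), and the SD was 1.19 in 90Sr mice and 0.31 in controls. It was above 0 with the 75th percentile as the scaling (0.04), with the slide as a block (0.65) and with scan day as a block (0.59). Ddb2 was below 0 at days 4, 7, 9 and 25 under all 5 scalings. With the 75th percentile, quantile normalization or the median of detected probes it did not pass the call rule at any day (changes of -0.76 to -0.66 at day 4 and -0.73 to -0.56 at day 25). Under normexp background correction with its offset of 50 no day passed the rule. Changes were then -0.46, -0.09 and 0.23 at days 4, 25 and 30. With scan day as a block the day 7 change was -1.1 and passed the rule (limma adjusted p = 0.00142), but it rests on 2 90Sr mice. The Ddb2 probe was well above background on 28 of 28 control arrays and on 22 of 28 90Sr arrays.

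Phlda3, which encodes a pleckstrin-homology protein that restrains Akt signaling, had a higher mean in 90Sr mice at every day. At day 4 its controls were at 5.0, 5.03, 4.97 and 4.86 and its 90Sr mice at 5.67, 5.52, 5.66 and 5.46, a change of 0.61 ± 0.11 (SE; limma adjusted p = 0.00183). At day 7 controls ran from 4.70 to 5.30 (median 4.97) and 90Sr mice from 5.53 to 6.47 (median 5.74), a change of 0.84 ± 0.17 (limma adjusted p = 0.00102). The groups did not overlap at these days. Days 9 and 25 gave 0.73 ± 0.27 and 0.46 ± 0.19 (limma adjusted p = 0.0364 and 0.0437), with 5 of 6 90Sr mice above every control at each. At day 30 controls ran from 4.51 to 4.78 (median 4.59) and 90Sr mice from 5.26 to 6.18 (median 5.63), and this change of 1.07 ± 0.19 (limma adjusted p = 2.98e-04) passed the call rule. Without 90Sr replicate 5 it was 0.97, and with quantile normalization 0.997, both just under 2-fold. On the slides that held both groups the change was 0.96, 0.28, 0.23 and 0.86 at days 7, 9, 25 and 30 (limma adjusted p = 0.0176, 0.634, 0.657 and 0.121). The direction held at every day under the 4 ways of scaling arrays, while without scaling it was below 0 at days 4, 9 and 25, at -0.04, -0.21 and -0.21, and at day 30 it was 0.48 and no longer called. With scan day as a block Phlda3 passed the call rule at day 7 (1.13, limma adjusted p = 0.00136) and not at day 30 (0.81, limma adjusted p = 0.0297). These fits rest on 2 90Sr mice each. With normexp background correction and its offset of 50 the Phlda3 change was -0.58 at day 4 and passed the rule at no day.

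Sesn2, which encodes a sestrin that links stress to the nutrient sensor mTORC1, showed small changes of -0.08, -0.10, -0.46, -0.35 and -0.16. Its groups overlapped at every day, although 5 of 6 90Sr mice were below every control at days 9 and 25. The limma adjusted p was 0.0637 at day 9 and 0.0447 at day 25, and the day 25 change was 0.14 with the 75th percentile as the scaling.

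**Figure D5:**
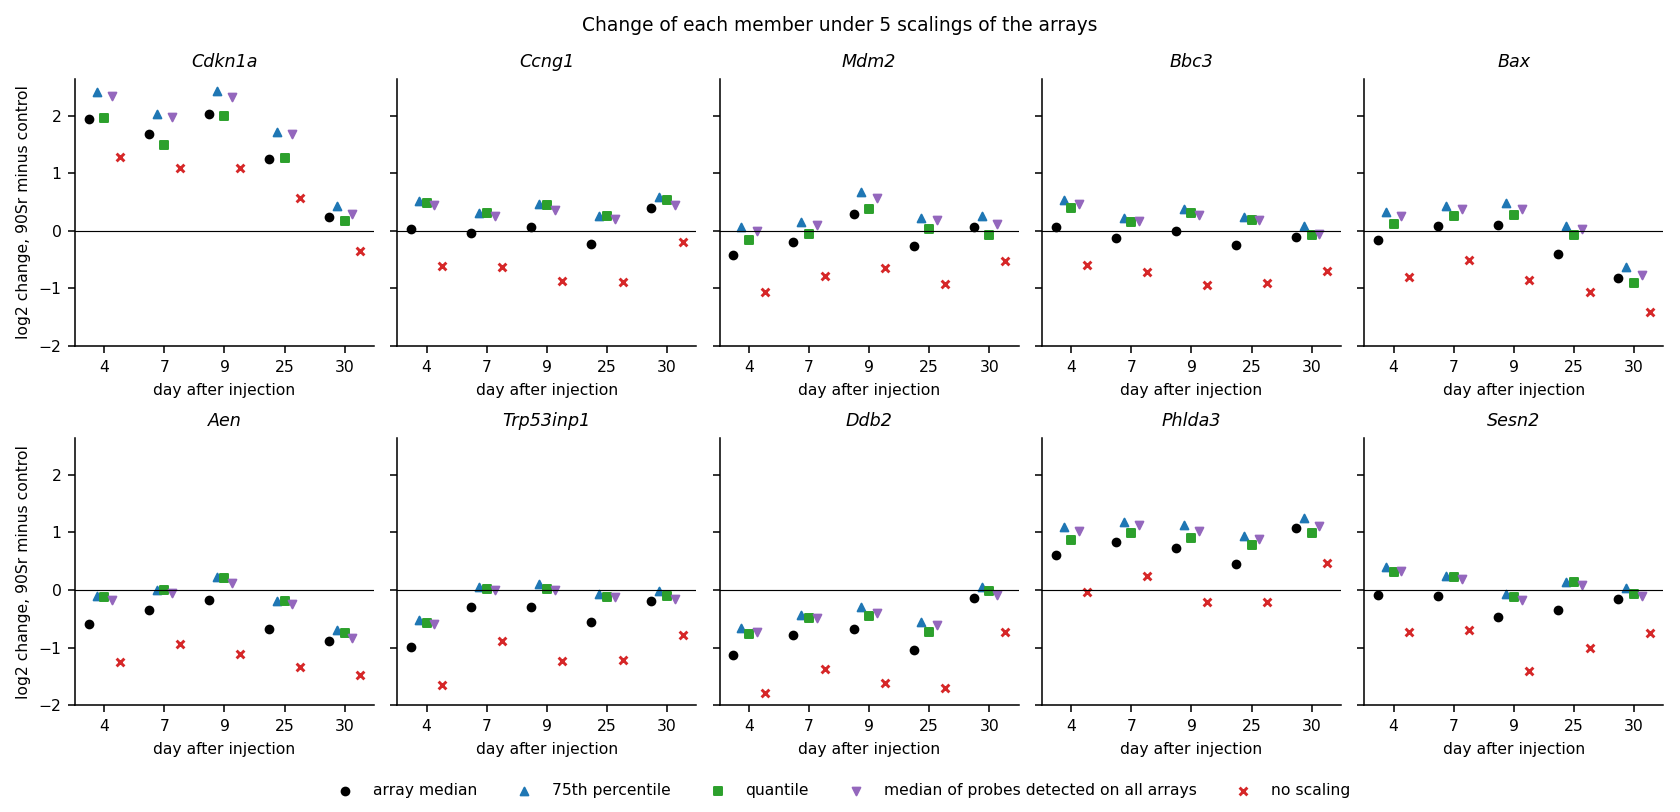
Change of each member (90Sr minus control, log2, vertical axis) by day under 5 ways of scaling the arrays, each with its own marker. Cdkn1a stayed above 0 and Ddb2 below 0 from day 4 to day 25 under every scaling, while members with smaller changes, such as Ccng1, Bbc3 and Sesn2, crossed 0.

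Whether the effect of 90Sr differed between days was tested in 1 limma fit of all 10 groups. It did for 3 of 10 members, Cdkn1a, Bax and Aen (adjusted p = 9.66e-04, 0.0242 and 0.0447), against 22.6% of all genes. The mean effect of days 25 and 30 less that of days 4, 7 and 9 was below 0 for the same 3 members (2.17% of all genes) and above 0 at an adjusted p under 0.05 for 0 members (10.6% of all genes). It was -1.15 ± 0.23 (SE; adjusted p = 8.58e-04) for Cdkn1a, -0.62 ± 0.17 (adjusted p = 0.0121) for Bax and -0.42 ± 0.14 (adjusted p = 0.0359) for Aen. For Phlda3 the late-minus-early difference was 0.04 ± 0.18, and for Ddb2 it was 0.27 ± 0.27, with adjusted p of 0.932 and 0.578. With the slide as a random block Cdkn1a alone was left in both tests, as it was without scaling. When each array was left out in turn, Cdkn1a passed both tests in all 56 fits. Bax missed the first test in 2 of them, those without control replicate 1 or 90Sr replicate 6 of day 30, and Aen missed the first in 33 and the second in 12. The Cdkn1a result rests on the main probe, whose changes at days 4, 7 and 9 are against controls not well above background. At days 25 and 30 most arrays of both groups were not well above background either, so the difference is one of measured values and not of folds. With the slide as a fixed block the changes of days 25 and 30 were alike, at 1.32 each, after 1.43 and 1.77 at days 7 and 9.

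Control mice of different days differed as well. By limma's F test over the 5 control groups, 6 of 10 members varied (Cdkn1a, Ccng1, Bbc3, Bax, Aen and Sesn2; adjusted p = 5.49e-05 to 0.0452), against 55.9% of all genes. Control means of Cdkn1a ran from -1.38 at day 7 to -0.57 at day 25, and those of Ccng1 from 2.49 at day 30 to 3.29 at day 7. The largest spans were thus 0.81 and 0.80, and each day was compared only with its own controls. With the slide as a random block Ccng1 alone varied between control days.

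Within the 90Sr mice the members did not vary as 1 group. Over the 28 90Sr arrays, each taken as its distance from its group mean, the pairs with the highest Pearson correlations were Aen with Trp53inp1 (0.71), Bax with Mdm2 (0.70) and Ccng1 with Mdm2 (0.68). The lowest was that of Ddb2 with Phlda3 (-0.35), and Cdkn1a with Phlda3 was at -0.20. All these values share the array and its scaling. Over all 56 arrays, each minus its day's control mean, the genes most like Cdkn1a were Hist2h2bb (Pearson r = 0.80), F530104D19Rik (0.79) and Cdca3 (0.78). Those most like Ddb2 were Snhg12 (0.78), Txndc12 (0.77) and Qrich1 (0.77), and those most like Phlda3 were Atpif1, TC1713000 and Cox8a (0.90 each). These are descriptions over arrays that share groups, and the genes most like each member were different for the 3 members.

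Other parts of the p53 pathway were read from lists. Of 37 further p53 targets, 31 were tested, and 0, 0, 0, 1 and 2 were called higher and 7, 7, 5, 6 and 3 lower at the 5 days in order. Of all genes, 17.3%, 12%, 13.7%, 19.7% and 16.1% were called lower, so the list's share was above that of all genes at days 4, 7 and 9 and below it at days 25 and 30. The list median was -0.55, -0.28, -0.40, -0.76 and -0.30, and the median of all genes is given above. With the 75th percentile as the scaling, 3 were called higher and 5 lower at day 4, and 4 higher and 0 lower at day 9. The named 5 targets were chosen for the largest mean change among those called at 2 or more days, so their direction follows in part from the choice. They were lower in 90Sr mice at every day under all 5 scalings. Targets with a higher mean, such as Ckap2 (mean change 1.19) and Ddit4 (0.91), were called higher at 0 and 1 days and did not meet that rule. Pmaip1, which encodes the death protein NOXA, fell by 1.85, 1.22, 1.21 and 1.66 at days 4, 7, 9 and 25 on the log2 scale. Siva1, a death-receptor partner, fell by 1.51, 1.27, 1.21, 1.53 and 1.62 over the 5 days. Apaf1, the scaffold of the apoptosome, fell by 1.98 and 1.83 at days 4 and 7. The glycolysis regulator Tigar, listed on the array as 9630033F20Rik, fell by 1.97, 1.59, 1.23 and 1.66 at days 4, 7, 9 and 25, and the phospholipid carrier Pltp fell by 1.69, 1.06, 1.15 and 1.58 at days 4, 9, 25 and 30. Pmaip1 was called under all 5 scalings at day 4 and under 2 at days 7, 9 and 25, and Siva1 under 2 at days 4, 7 and 9 and under 5 later. Pltp was called under 2 at days 9 and 25 and Tigar under 3 at day 9, while the other calls named here held under all 5.

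Of 23 genes for p53 and its regulators, 21 were tested, and 0, 1, 0, 0 and 4 were called higher and 5, 4, 1, 2 and 4 lower. Against the shares of all genes given above, the share called lower was smaller at days 9 and 25 and larger at the other days, and nothing particular to either list is read from these counts. The damage kinase Atm fell by 1.71, 1.35 and 1.33 at days 4, 7 and 30. The deacetylase Sirt1 fell by 1.40, 1.09, 1.03, 1.40 and 1.46 over the 5 days, the p53 deubiquitinase Usp10 fell by 1.46, 1.05, 1.38 and 1.68 at days 4, 7, 25 and 30, and the acetyltransferase Ep300 fell by 1.37 and 1.83 at days 4 and 30. These 4 were chosen as called lower at 2 or more days, and Atr below as called higher, so their direction follows in part from the choice. Hipk2, called higher at 1 day with a mean change of 0.94, did not meet that rule. All 4 lower genes were below 0 at every day under each of the 5 scalings, but not all calls were kept under all of them. Sirt1 was called under 2 scalings at days 4 to 25 and under 5 at day 30, Usp10 under 4 at day 4, 2 at days 7 and 25 and 5 at day 30, and Ep300 under 3 at day 4 and 5 at day 30. The calls of Atm held under all 5. The damage kinase Atr rose by 1.07 at day 7 and 1.81 at day 30, above 0 under each scaling and called under 4 of 5 at those days. Trp53 itself, named here outside the rule for named genes, changed by -0.76, -1.26, -0.13, -0.88 and -1.17, was called lower at day 7 and was above 0 at day 9 under 3 of the 5 scalings. Counts of this list followed the scaling, with 1 called higher and 1 lower at day 4 on the 75th percentile.

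Marker transcripts of blood cells were read beside these results. Of 8 B cell markers 6 were called lower at every day, and 6 to 8 were under each of the 5 scalings. At day 25, 1 was called higher on the 75th percentile and on the median of detected probes. The summed linear level of the 8 B cell markers, relative to the array median, ran from 678 to 1528 in controls and from 125 to 589 in 90Sr mice over the 5 days. Of 8 monocyte markers 6, 6, 6, 6 and 4 were called lower, but at day 25 the count was 0 on the 75th percentile and on the median of detected probes and 1 with quantile normalization, and their summed levels overlapped between groups at every day. Of 8 erythroid markers 0, 1, 6, 0 and 5 were called higher, with list medians of 0.61, 0.63, 1.17, 0.58 and 1.15, and without scaling the medians were -0.05 at day 4 and -0.09 at day 25. On the 75th percentile 5, 3, 8, 5 and 7 erythroid markers were called higher. The summed erythroid level ran from 20298 to 47381 in controls and from 35338 to 75940 in 90Sr mice, and the groups did not overlap at any day. Of the T cell markers 0, 0, 0, 0 and 2 of 8 were called lower, and of the neutrophil markers 2, 0, 0, 1 and 0 of 8. No NK cell or platelet marker was called at any day with the array median, but 3 platelet markers were called higher at day 30 on the 75th percentile, and 1, 4, 6, 2 and 1 NK cell markers were called lower without scaling. Without scaling 5, 5, 7, 5 and 3 T cell and 6, 0, 5, 6 and 0 neutrophil markers were called lower. The study's smear counts, reported without a significant change, were not compared with these markers. The part of these markers in the changes of Cdkn1a, Phlda3 and Ddb2 was not tested.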

How the data were processed

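RNA from whole blood of 56 mice was hybridized by the authors to one-color arrays, and they deposited each spot's processed signal as an intensity from Agilent Feature Extraction (version 10.7 in the submitters' processing notes, 11.5.1.1 per the file headers), background-corrected and not scaled between arrays. They also deposited a table of processed log2 values, which holds 2 of the members and, within an array, differed from the scanner log2 values by a constant to within 0.160 (1st to 99th percentile); its columns have medians of 4.32 to 5.10, so it is not centered, and the constant's origin is not known.

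From the intensities, control spots and spots with an outlier flag were left out, spots of a probe were averaged, and each array was centered on its median. The brightest probe past the detection filter stood for a gene. The filter on variation that the methods name leaves 3 of the members and was an alternative. Fits used limma 3.58.1 in R 4.3.3, with Benjamini-Hochberg adjustment over all genes tested, and steps were tested on simulated data. Members and lists were chosen with earlier results of these data known. Named genes were all members, the list genes called at 2 or more days with the largest mean change, and the 3 genes most like each called member. Where nothing says that mice were handled apart, p-values measure the spread between these arrays, whose number limits the precision.

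Alternatives were other scalings, normexp with an offset of 50, other filters and thresholds, the authors' values, a block for slide or for replicate number, a joint fit of the groups, and leaving out arrays singly. Scan day as a block, all spots kept and no scaling were chosen after seeing the data.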

Additional observations from a re-analysis of the deposited data

Results flagged for a closer look

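In 11 of 100 combinations of a member and a group of mice, 1 mouse stood apart from the rest of its group. Chance gives about 1 in 20 for independent groups, but the members share the same arrays, so the count is not to be set against that share. The gap to the nearest mouse, as a share of the group's range, is given for each. Control replicate 6 of day 25 stood apart for Bax (0.634), Aen (0.651) and Trp53inp1 (0.626), and it was the lowest of its group for all 3 genes. Among 90Sr mice, replicate 1 of day 9 stood apart on the low side for Bax (0.760) and Phlda3 (0.752). Replicate 6 of day 25 stood apart for Mdm2 (0.735), replicate 6 of day 30 for Aen (0.702) and replicate 2 of day 30 for Sesn2 (0.637). The other control mice were replicate 6 of day 9 for Ddb2 (0.738), replicate 2 of day 7 for Bbc3 (0.690) and replicate 3 of day 7 for Bax (0.671).

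The effect of 90Sr differed between days by limma's interaction test for Cdkn1a (adjusted p = 9.66e-04), Bax (adjusted p = 0.0242) and Aen (adjusted p = 0.0447). What these mice and days share was not tested.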

How the results depend on the processing

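Members called numbered 2, 1, 1, 2 and 1 in order of day, against 19.4%, 14.6%, 18.1%, 25.4% and 31.5% of all genes. The count was 2 at days 7 and 9 and 1 at day 25 on the 75th percentile and on the median of detected probes. Of all genes, 14.3%, 16.9% and 26.7% were called at these days on the 75th percentile, and 13.2%, 15.9% and 25.7% on the median of detected probes. Quantile normalization gave 1, 1 and 0 at days 4, 25 and 30, against 13.6%, 17.7% and 28.2% of all genes. No scaling gave 5, 2, 5, 5 and 2 in order of day, against 34.5%, 31.7%, 41.9%, 39.6% and 28.6% of all genes. For the settings that follow no share of all genes is given, and nothing particular to the members is read from their counts. Normexp background gave 0 at every day, and the filter on probes well above background, which leaves out Cdkn1a, gave 1, 0, 0 and 1 at days 4 to 25. With an adjusted p under 0.05 and no minimum fold the counts were 6, 4, 3, 6 and 3, and the share of all genes at that threshold is not given. The authors' values, which hold 2 members, gave 0, 1 and 0 at days 7, 25 and 30. The slide as a fixed block gave 0 at days 7, 25 and 30, the slide as a random block 1 at day 25, scan day as a block 3 at day 7 and 0 at day 30, the mean of a gene's probes 1 at day 25 and 1 fit of all groups 1 at day 4. With a replicate block the count was 1 at day 25, where Ddb2 was no longer called at -1.05, and no other call changed; same-numbered arrays had correlations of -0.28 to 0.32, over 0.1 in 8 of 28 pairs, so the numbers were not taken as pairs.

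Of the 3 members whose effect differed between days, and the 3 with a late-minus-early difference, 1 and 1 were left with the variation filter, the authors' values, the slide as a random block or no scaling, and normexp gave 0 and 7. The 6 members that differed between control days became 1, 0, 1 and 1 with the variation filter, the authors' values, normexp and the random block. Leaving out 1 array gave 2 to 3, 1 to 1, 1 to 1, 1 to 2 and 0 to 2 calls by day, 1 to 4 members differing between days, 2 to 3 late-minus-early and 4 to 9 between control days. The difference of the third Cdkn1a probe, 0.33, 0.19, 0.80, 0.75 and 1.44 between signals not well above background, then ranged over 0.196 to 0.574, 0.0250 to 0.547, 0.714 to 0.927, 0.630 to 0.873 and 1.16 to 1.59 by day, and its day 4 difference was 0.81 on the 75th percentile. The cause of these moves was not tested. No called change turned sign. The slide could not be fitted as a fixed block at day 4 or across days. Low signal over background limits the Cdkn1a values.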
